A study of Mus musculus with 6 samples.

Results

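Transcripts of 45 genes of the lysosome were compared between wild-type macrophages and macrophages with disrupted retinoid X receptor genes. The genes were taken by symbol from a table of read counts for 45193 genes, and each symbol matched 1 row. They comprised 8 cathepsins, 6 glycosidases, 6 genes for lipid hydrolases, their activator and cholesterol transfer, 7 membrane proteins, 2 transcription factors and 16 genes of the vacuolar ATPase (V-ATPase). RNA had been sequenced from macrophages differentiated in culture from mouse bone marrow, in 3 libraries of each genotype. Wild-type (WT) marrow was of the strain C57BL/6J. The other cells, called RXRKO here, carried the genotype RXRafl/flLysMCre RXRb-/- on the same strain: loxP-flanked Rxra, Cre recombinase driven by the lysozyme M locus (Lyz2) of myeloid cells, and inactivated Rxrb. No Cre is given for the WT cells. All cultures differentiated over 6 days in L929-conditioned medium, a source of CSF-1, and were moved to medium without serum on the evening before a treatment of 3 hours with DMSO as vehicle. Because the labels name no animals, p-values reflect only how far the libraries of a genotype spread.

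Lysosomes are acidic organelles in which macrophages break down what they engulf and what autophagy delivers. The V-ATPase pumps protons into them: its V1 sector hydrolyses ATP on the cytosolic face, and its V0 sector carries the protons through the membrane. Many of the hydrolases inside, cathepsins and glycosidases among them, work best at this acidity. Many lysosomal genes carry an E-box, called the CLEAR element, through which the transcription factors TFEB, TFE3 and MITF can activate them. Retinoid X receptors act as partners of other nuclear receptors, such as the liver X receptors, on DNA.

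Library totals ran from 7880320 to 14957253 counts in WT and from 17250051 to 25091019 in RXRKO, so every WT library was shallower than every RXRKO library. Rxrb was at 66.7 ± 1.86 counts-per-million units (CPM, scaled by TMM factors, mean ± SD, n = 3) in WT and 9.27 ± 2.09 in RXRKO. Lyz2 fell to 0.186% of its WT level. Rxra was at 104 ± 6.70 and 109 ± 4.83 CPM, a difference that did not pass (adjusted p 0.588 by edgeR). Its row counts reads of the whole gene, so loss of the loxP-flanked part cannot be read from these counts. No WT library held a read of Xist, which was at 209, 267 and 236 CPM in the RXRKO libraries, while Y-linked Ddx3y was at 101 to 112 CPM in WT and 49.7 to 55.4 in RXRKO. Eif2s3y, Kdm5d and Uty were lower in RXRKO as well. Each RXRKO library thus held reads of both Xist and Y-linked genes, while WT libraries held only the latter. The sex makeup of the cells differed with genotype, and the effects of sex and genotype cannot be told apart. As the labels name no animals, whether marrow was pooled or the RXRKO libraries came from separate mice is not known. Cre and the fall of Lyz2 also went with genotype, so their effects and those of the receptor genes cannot be told apart. Macrophage markers summed to 5793 to 6306 CPM in WT and 6624 to 7416 in RXRKO over 7 genes, of which 3 were higher and 2 lower in RXRKO. The 7 neutrophil markers summed to 717 to 823 and 695 to 757 CPM, with Elane and Mpo lower, and osteoclast markers to 28.3 to 33.1 and 25.6 to 30.5 CPM, with Acp5 higher, Ctsk lower and Calcr at 0 reads in all libraries. B cell, T and NK cell, erythroid, mast cell, dendritic cell and fibroblast markers each summed to at most 9.51 CPM in any library, with the B cell marker Cd79b lower and Hba-a1 and Hbb-bs at 0 reads. The part of these cell type markers in the results below was not tested.

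In RXRKO macrophages 4 of the 45 lysosomal genes were higher and 8 were lower than in WT, and 33 did not pass the test. The higher genes were Gaa, Ctsb, Gusb and Lamp1, that is, 2 glycosidases, a cathepsin and a membrane protein. The lower genes were Scarb2, Ctsh and 6 subunits of the V-ATPase: Atp6v0a1, Atp6v0c, Atp6v0d2, Atp6v1b2, Atp6v1d and Atp6v1g1. The test was edgeR's quasi-likelihood F test with Benjamini-Hochberg adjustment over 12011 genes and a threshold of 0.05, in which 19.4% of the tested genes passed, 9.77% higher and 9.61% lower. The lysosomal genes were abundant: 43 of the 45 were among the 3003 tested genes with the highest mean CPM, of which 27.1% passed, 14.6% higher and 12.5% lower. The members' share of 26.7% was thus near that of these 3003 genes. The median member stood at percentile 97.1 of the tested genes by level, so the 3003 genes were not matched to the members in abundance. In bulk RNA, fewer cells of a type and less RNA per cell cannot be told apart.

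Changes were small. None of the 12 genes reached 2-fold, which 3.24% of tested genes passed with the test, and 37 of the 45 lay within 1.25-fold, as did 69.6% of all tested genes. The log2 fold changes of the 45 genes (RXRKO minus WT) ran from -0.70 to 0.96 with a median of -0.03, against a median of -0.00 over all tested genes. Values of the WT and RXRKO libraries did not overlap for 17 of the 45, or 37.8%, against 36.9% of tested genes. Of these 17, 8 were higher in RXRKO (19.0% of tested genes) and 9 lower (17.9%). Leaving out WT replicate 1 left 2 higher and 4 lower genes, and leaving out RXRKO replicate 1, 2 or 3 left 3, 3 and 4 lower genes. Calls for Gaa, Ctsb, Scarb2, Ctsh and Atp6v0d2 held in each of the 18 other fits that were run.

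**Figure D1:**
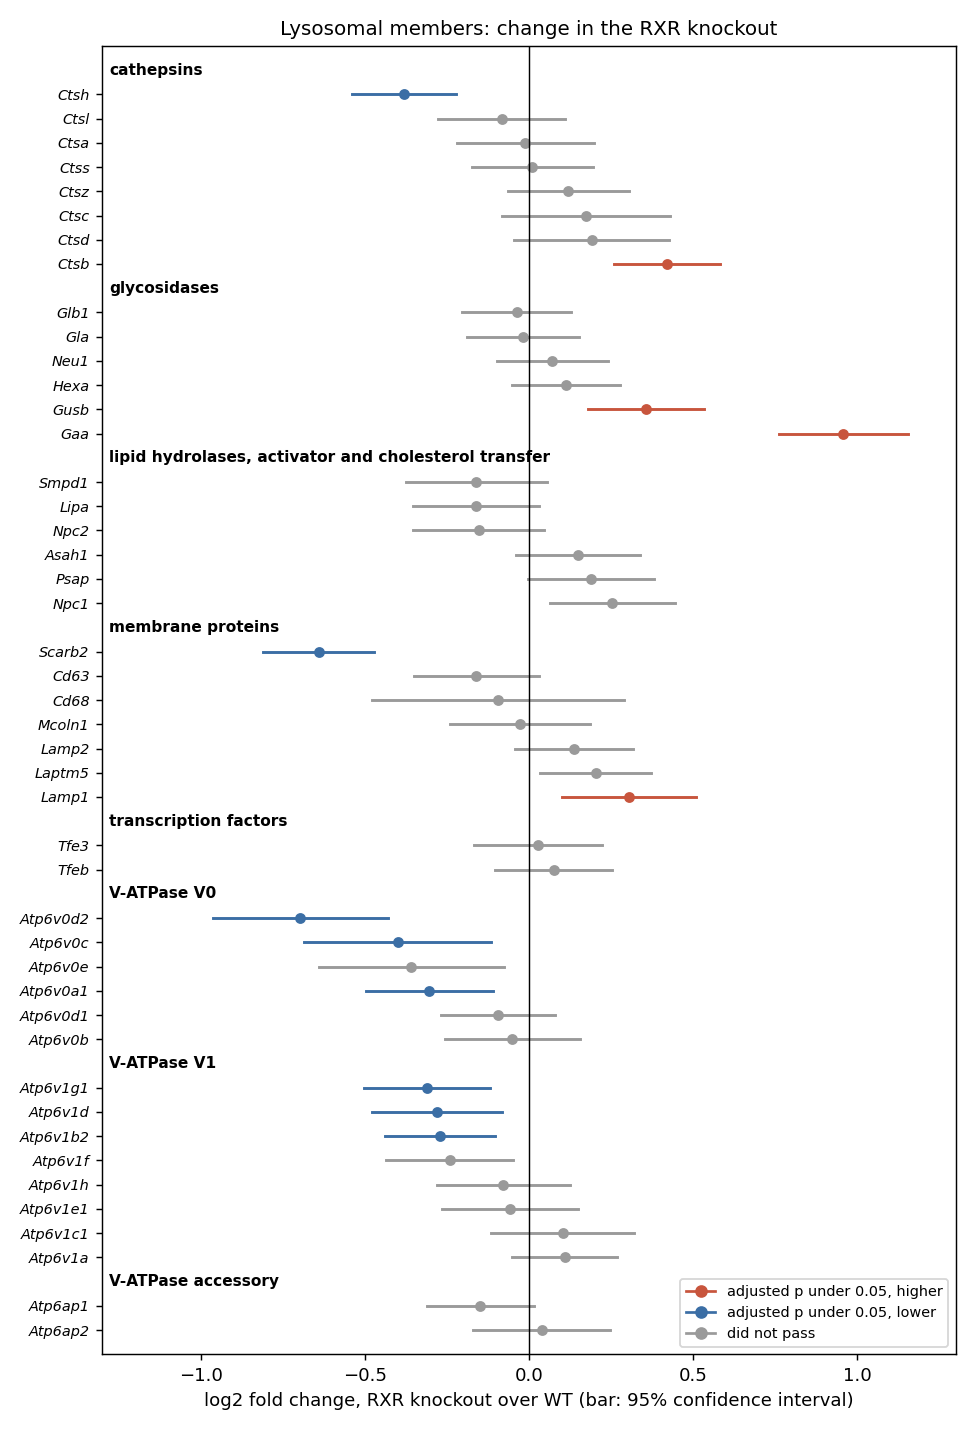
Log2 fold change (RXRKO minus WT, x axis) of each of the 45 genes, grouped by class on the y axis, with 95% confidence intervals from the edgeR fit of 3 against 3 libraries; colour marks genes past the threshold. Gaa stands at the high end at 0.96, Atp6v0d2 and Scarb2 at the low end at -0.70 and -0.64, and 13 of the 16 V-ATPase genes lie below 0.

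Of the 8 cathepsins, Ctsb rose, Ctsh fell and 6 did not pass, with a median log2 fold change of 0.07. Ctsb (ENSMUSG00000021939, GRCm38 chromosome 14, 63122462 to 63145923), a cysteine protease, was measured at 15812, 16544 and 16403 CPM in WT and 22290, 21966 and 21018 in RXRKO. All 3 RXRKO libraries lay above all 3 WT libraries, and the log2 fold change was 0.42 (SE 0.0743, adjusted p 0.00166 by edgeR). Exons of Ctsb and of Fdft1 on the opposite strand share 774 bases, but Fdft1 had 922 reads over all libraries. Ctsb alone took 1.58 to 1.68% of all WT counts and 2.09 to 2.22% of RXRKO counts. The 45 genes together took 7.42 ± 0.126% of counts in WT and 8.36 ± 0.168% in RXRKO (n = 3 each).

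Ctsh (ENSMUSG00000032359, chromosome 9, 90054152 to 90076089), a cathepsin with aminopeptidase activity, went the other way. Its libraries held 357, 362 and 351 CPM in WT and 281, 274 and 267 in RXRKO. The groups were well apart, with SDs of 5.24 and 7.27 CPM, and the log2 fold change was -0.38 (SE 0.073, adjusted p 0.00286 by edgeR). The aspartic protease Ctsd, highest of the cathepsins per kilobase of exon, was at 11497, 13476 and 10240 CPM in WT and 13040, 12151 and 15024 in RXRKO. These values overlapped, and its difference of 0.19 did not pass (95% interval -0.04 to 0.43). Differences of the remaining 5 ran from -0.08 for Ctsl to 0.17 for Ctsc, the cathepsin that activates granule serine proteases. Ctss, which trims the invariant chain of MHC class II, was at 4864 ± 446 and 4901 ± 105 CPM with an interval of -0.17 to 0.19. Ctsa shares 495 exon bases with the abundant Pltp on the opposite strand, and whether strand was used in counting is not given in the sources used here, so its value is uncertain.

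Among the 6 glycosidases Gaa and Gusb rose and 4 did not pass, with a median of 0.09. Gaa (ENSMUSG00000025579, chromosome 11, 119267887 to 119285454) encodes the acid alpha-glucosidase that degrades glycogen in lysosomes. It stood at 99.6, 110 and 113 CPM in WT and 214, 189 and 225 CPM in RXRKO. The lowest RXRKO library lay well above the highest WT library. The level rose 1.94-fold from 108 ± 7.11 to 209 ± 18.6 CPM, a log2 fold change of 0.96 (SE 0.0907, adjusted p 1.36e-05 by edgeR). Gusb (ENSMUSG00000025534, chromosome 5, 129989011 to 130003049), beta-glucuronidase, was at 1118, 1222 and 1099 CPM in WT and 1466, 1379 and 1559 in RXRKO. The groups did not overlap and the log2 fold change was 0.36 (SE 0.0816, adjusted p 0.00851 by edgeR). Without WT replicate 1 the edgeR adjusted p of Gusb was above the threshold.

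Hexa, the alpha subunit of beta-hexosaminidase and the most abundant glycosidase per kilobase, was at 1338, 1424 and 1284 CPM in WT and 1489, 1426 and 1459 in RXRKO. The groups were apart by a narrow margin and the difference of 0.11 did not pass (95% interval -0.05 to 0.28). Gla, Glb1 and Neu1, which remove galactose and sialic acid, differed by -0.02, -0.04 and 0.07. Neu1 lies 0.893 Mb from the disrupted Rxrb on chromosome 17, at 34931253 to 34935953, and was at 118, 128 and 125 CPM in WT and 136, 126 and 128 in RXRKO. Its libraries overlapped, with a 95% interval of -0.10 to 0.24.

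None of the 6 genes of lysosomal lipid handling passed the test. Psap, which encodes the precursor of the saposin activators, was the most abundant of all 45 genes per kilobase, with 5653 CPM per kb in WT and 6443 in RXRKO. Its libraries held 14851, 16804 and 14877 CPM in WT and 17336, 16356 and 19348 in RXRKO. They overlapped, and the difference of 0.19 had an adjusted p of 0.162 by edgeR. Npc1 and Npc2, which hand cholesterol out of the lysosome, had differences of opposite sign, 0.25 and -0.15. Npc1 was at 323, 315 and 373 CPM in WT and 413, 417 and 375 in RXRKO, apart by 1 narrow step, with an adjusted p of 0.0601 by edgeR. It passed without WT replicate 3, without RXRKO replicate 3 and with no filter on low counts, and it shares 511 exon bases with Rmc1 on the opposite strand. The acid lipase Lipa, the ceramidase Asah1 and the sphingomyelinase Smpd1 differed by -0.16, 0.15 and -0.16. Smpd1 was the thinnest of the 45 genes, with 366 reads in WT replicate 2.

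Of the 7 membrane proteins Lamp1 rose, Scarb2 fell and 5 did not pass. Scarb2 (ENSMUSG00000029426, chromosome 5, 92441314 to 92506833) encodes LIMP-2, the receptor that carries beta-glucocerebrosidase to lysosomes. It was at 221, 236 and 226 CPM in WT and 138, 146 and 154 in RXRKO. The groups lay far apart beside their SDs of 7.87 and 7.93 CPM, and the log2 fold change was -0.64 (SE 0.0785, adjusted p 0.000111 by edgeR). Lamp1 (ENSMUSG00000031447, chromosome 8, 13159161 to 13175338), a main glycoprotein of the lysosomal membrane, was at 1782, 1536 and 1676 CPM in WT and 2165, 2199 and 1810 in RXRKO. RXRKO replicate 3 lay just above the highest WT library, the log2 fold change was 0.31 (SE 0.0941, adjusted p 0.038 by edgeR), and leaving out any 1 library other than RXRKO replicate 3 ended the call.

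Cd68, a heavily glycosylated marker of macrophages and the most abundant membrane protein per kilobase, was at 1421, 1074 and 1606 CPM in WT and 1386, 1470 and 985 in RXRKO. It varied most within both genotypes, with coefficients of variation of 19.8% and 20.3%, and its difference of -0.09 had a 95% interval of -0.48 to 0.29. Laptm5 differed by 0.20 with groups that did not overlap (adjusted p 0.0892 by edgeR), and Lamp2, Cd63 and the calcium channel Mcoln1 by 0.14, -0.16 and -0.03. Mcoln1 had the lowest level per kilobase of the 45, at 8.69 CPM per kb in WT and 8.56 in RXRKO.

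**Figure D2:**
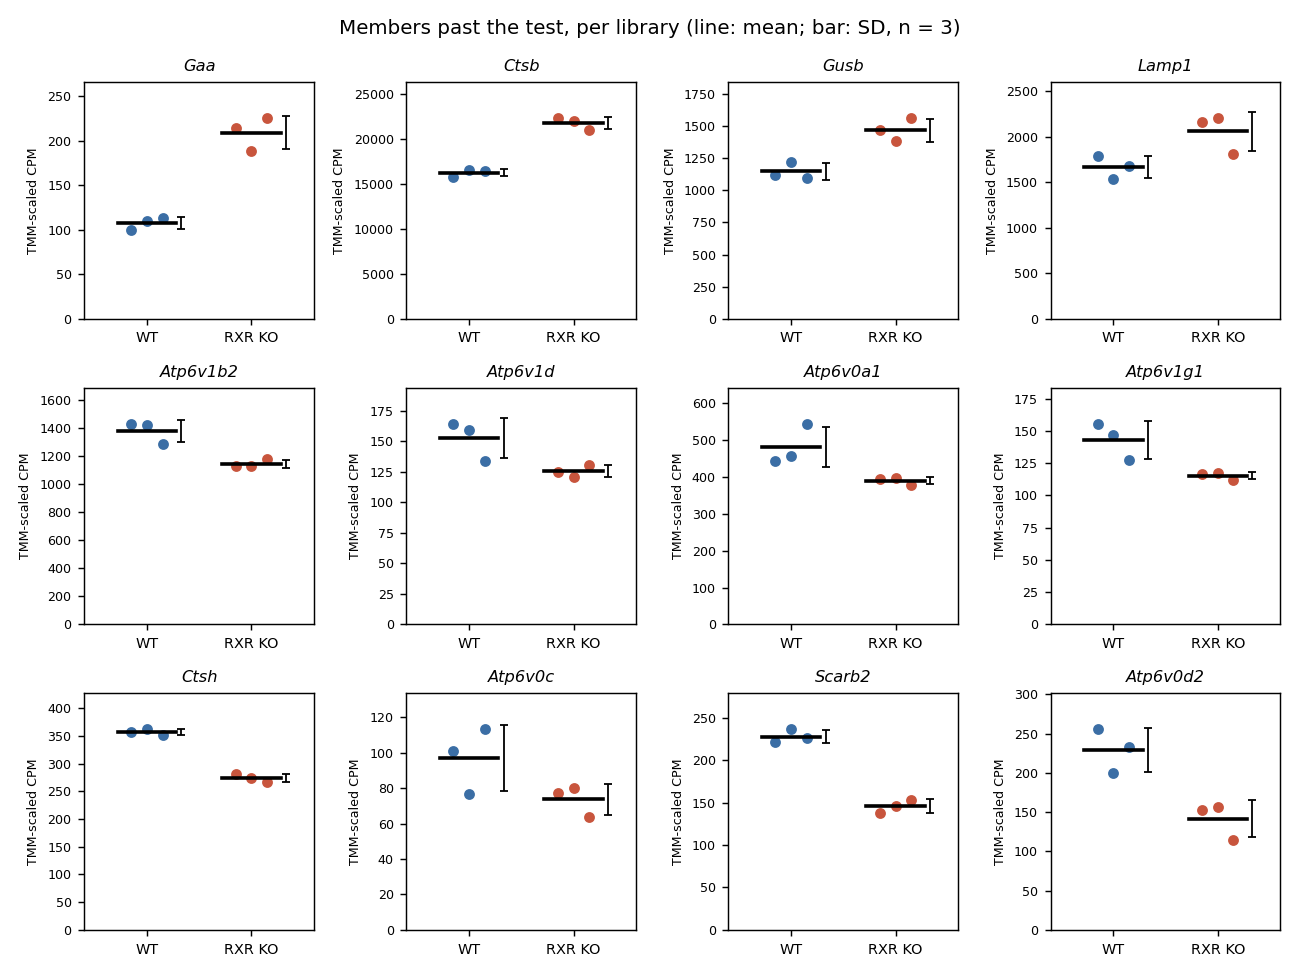
Scaled CPM of each library for the 12 genes past the threshold, with 3 WT and 3 RXRKO points a line at each mean and an error bar of 1 SD, 1 panel per gene. The groups are apart in each panel except that of Atp6v0c, where WT replicate 2 lies among the RXRKO libraries.

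Transcripts of the regulators TFEB and TFE3 did not differ beyond the spread. Tfeb was at 98.2, 106 and 98.5 CPM in WT and 111, 99.8 and 108 in RXRKO, a difference of 0.07 with a 95% interval of -0.10 to 0.25. Tfe3 was at 160, 146 and 164 CPM in WT and 170, 167 and 142 in RXRKO, a difference of 0.03 with an interval of -0.17 to 0.22. Both sets of libraries overlapped. These are transcript levels and do not measure where the proteins were in the cell. For 2 relatives on the wider list given further down, chosen after their values were seen, the values were 114 ± 7.29 and 158 ± 7.98 CPM for Mitf and 39.8 ± 2.52 and 26.1 ± 0.707 CPM for Tfec. Mitf was higher in RXRKO (log2 fold change 0.47, adjusted p 0.00157 by edgeR) and Tfec lower (-0.60, adjusted p 0.000851).

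Of the 16 V-ATPase genes 6 fell (37.5%), none rose and 10 did not pass, with a median of -0.20. Among all tested genes 9.61% were lower, and among the 3003 most abundant 12.5%. Of the 14 cathepsins and glycosidases 3 rose (21.4%), 1 fell and 10 did not pass, with a median of 0.09, where 9.77% of all tested genes and 14.6% of the 3003 most abundant were higher. With or without a call, 13 of the 16 V-ATPase genes had a log2 fold change below 0. Without Atp6v0d2 the V-ATPase median was -0.15. Of the lower V-ATPase genes only Atp6v0d2 kept its call in each of the 18 other fits, and that for Atp6v0c is uncertain, as given below. Of the called cathepsins and glycosidases, Gaa, Ctsb and Ctsh kept theirs and Gusb did not. These lists were chosen with results known, so the counts and medians are a description.

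In the V0 sector 3 of 6 genes fell, with a median of -0.33. Atp6v0d2 (ENSMUSG00000028238, chromosome 4, 19876841 to 19922605) encodes the second form of the d subunit, which links the rotor to the membrane ring and is known from osteoclasts and macrophages. It was at 255, 199 and 233 CPM in WT and 153, 157 and 114 in RXRKO. No RXRKO library reached the lowest WT library, and the log2 fold change was -0.70 (SE 0.123, adjusted p 0.00168 by edgeR). Its widely expressed counterpart Atp6v0d1 was at 201, 189 and 198 CPM in WT and 191, 190 and 169 in RXRKO, with a difference of -0.09 (95% interval -0.27 to 0.08). Per kilobase there were 84.0, 69.7 and 78.0 Atp6v0d2 counts per 100 of Atp6v0d1 in WT and 52.9, 54.6 and 44.7 in RXRKO. The ratio was lower in each RXRKO library (exact two-sided permutation p = 0.1, the smallest that 3 against 3 can give).

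The a subunit, which steers the pump to its membrane, also has several forms. Atp6v0a1 (chromosome 11, 101009452 to 101063719) was at 443, 458 and 544 CPM in WT and 395, 397 and 379 in RXRKO. The groups were apart, the log2 fold change was -0.30 (SE 0.0894, adjusted p 0.0312 by edgeR), and the call ended without WT replicate 3 or without any 1 RXRKO library. Tcirg1, the a3 form known from lysosomes and osteoclasts and named here after its values were seen, was at 620, 678 and 693 CPM in WT and 868, 842 and 863 in RXRKO. It rose by 0.37 (SE 0.0768, adjusted p 0.00479 by edgeR). Per kilobase Tcirg1 stood at 197 ± 14.9 counts per 100 of Atp6v0a1 in WT and 313 ± 10.9 in RXRKO, given as a description since Tcirg1 was chosen with its values known. The third form measured, Atp6v0a2, differed by 0.15 (adjusted p 0.286).

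Atp6v0c encodes the proteolipid of the proton-carrying ring. It was at 101, 77.0 and 113 CPM in WT and 77.5, 80.0 and 63.9 in RXRKO. WT replicate 2 lay among the RXRKO libraries, and the log2 fold change was -0.40 (SE 0.131, adjusted p 0.0492 by edgeR). Its processed pseudogene Atp6v0c-ps2 on chromosome 6, with 12.1% of the 50-base stretches of Atp6v0c in its sequence, moved the opposite way, at 0.934, 0.522 and 1.50 CPM in WT and 16.1, 18.5 and 8.96 in RXRKO. Reads of the pair could be split, so they were also summed: 98.0 ± 18.9 CPM in WT and 88.3 ± 13.6 in RXRKO, a log2 fold change of -0.16 (adjusted p 0.488 by edgeR). The call for Atp6v0c is therefore uncertain. Atp6v0c lies 9.86 Mb from Rxrb (chromosome 17, 24163866 to 24169702), and 25.0% of the 296 tested genes within 10 Mb of Rxrb passed the test.

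**Figure D3:**
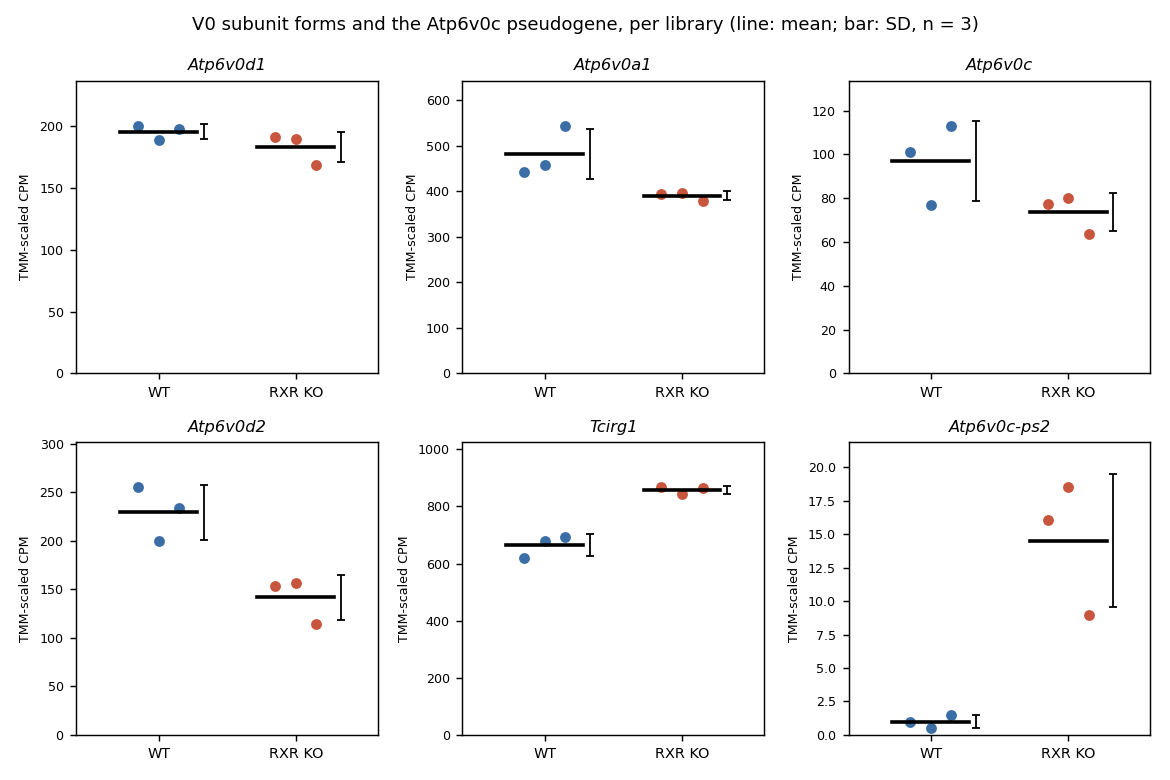
Scaled CPM (y axes, from 0) of Atp6v0d1, Atp6v0d2, Atp6v0a1, Tcirg1, Atp6v0c and the pseudogene Atp6v0c-ps2 in each of the 3 WT and 3 RXRKO libraries, with lines at the means and error bars of 1 SD. Atp6v0d2 and Atp6v0a1 are lower and Tcirg1 and Atp6v0c-ps2 higher in every RXRKO library than in any WT library, while Atp6v0d1 and Atp6v0c overlap.

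Atp6v0e, a small membrane subunit 7.33 Mb from Rxrb (chromosome 17, 26663231 to 26699647), was at 247, 181 and 210 CPM in WT and 183, 179 and 135 in RXRKO. The groups overlapped and its difference of -0.36 missed the threshold (adjusted p 0.0751 by edgeR). It passed without WT replicate 2, in DESeq2 and with no filter on low counts. Atp6v0b, the V0 subunit highest per kilobase, was at 400, 458 and 367 CPM in WT and 383, 371 and 427 in RXRKO, with a 95% interval of -0.26 to 0.15.

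In the V1 sector 3 of 8 genes fell, with a median of -0.16. Atp6v1b2 (ENSMUSG00000006273, chromosome 8, 69088646 to 69113711), a subunit of the catalytic hexamer, was the most abundant V-ATPase gene per kilobase, at 260 CPM per kb in WT and 216 in RXRKO. Its libraries held 1429, 1424 and 1289 CPM in WT and 1127, 1128 and 1176 in RXRKO. They did not overlap, and the log2 fold change was -0.27 (SE 0.0774, adjusted p 0.0273 by edgeR). Atp6v1a, the other subunit of the hexamer, was at 1012, 987 and 985 CPM in WT and 1029, 1083 and 1107 in RXRKO. Here each RXRKO library lay above WT, and the difference of 0.11 did not pass (95% interval -0.05 to 0.27).

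The stalk subunits Atp6v1g1 (chromosome 4, 63544772 to 63550750) and Atp6v1d (chromosome 12, 78840725 to 78861638) also fell. Atp6v1g1 was at 155, 147 and 127 CPM in WT and 117, 117 and 112 in RXRKO, a log2 fold change of -0.31 (adjusted p 0.0274 by edgeR). Atp6v1d was at 164, 159 and 134 CPM in WT and 124, 121 and 130 in RXRKO, a log2 fold change of -0.28 (adjusted p 0.0474). In both genes WT replicate 3 was the lowest WT library and lay closest to the RXRKO values. The Atp6v1d call held in 6 of the 18 other fits and was lost with no filter, limma-voom, limma on the authors' values and thinning, among others. Leaving out any 1 library except WT replicate 3 ended both calls, and that for Atp6v1b2 ended without WT replicate 1 or 2 or RXRKO replicate 1 or 2. The remaining V1 genes Atp6v1c1, Atp6v1e1, Atp6v1f and Atp6v1h differed by 0.10, -0.06, -0.24 and -0.08. Atp6v1f was lower in each RXRKO library and passed without WT replicate 2.

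The accessory proteins Atp6ap1 and Atp6ap2, which help to assemble the pump, did not pass. Atp6ap1 was at 474, 459 and 444 CPM in WT and 419, 427 and 397 in RXRKO, and Atp6ap2 at 406, 409 and 329 and at 377, 374 and 423. Only the first pair of groups was apart, with a difference of -0.15 (95% interval -0.31 to 0.01). Both genes are X-linked, as are Gla, Lamp2 and Tfe3. None of these 5 passed, beside 17.4% of the 385 tested genes on the X chromosome. Gla was at 235, 231 and 209 CPM in WT and 221, 216 and 229 in RXRKO, and Lamp2 at 720, 637 and 653 and at 739, 784 and 688, each with overlapping groups.

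A ratio within each library set the pump against the hydrolases without scaling between libraries. Summed CPM per kb of the 16 V-ATPase genes was 0.125, 0.114 and 0.126 of that of the 14 cathepsins and glycosidases in WT and 0.0959, 0.101 and 0.0936 in RXRKO. All RXRKO libraries lay below all WT libraries, a log2 difference of -0.33 between the means of 0.122 ± 0.00661 and 0.0967 ± 0.00356. The V-ATPase sum went from 1691 ± 74.3 to 1523 ± 9.95 CPM per kb and the hydrolase sum from 13930 ± 1087 to 15771 ± 651, and neither pair of groups overlapped. Tcirg1, which is not among the 16 genes, is outside the V-ATPase sum. It was at 144 ± 8.33 CPM per kb in WT and 186 ± 2.92 in RXRKO. Without the largest term of each sum, Atp6v1b2 and Ctsd, the log2 difference was -0.30. The separation of the hydrolase sums rested on Ctsb. Without it the sums were 11385, 12247 and 10099.9 CPM per kb in WT and 12137, 11466 and 12922 in RXRKO, which overlapped. The means without Ctsb were 11244 ± 1081 in WT and 12175 ± 729 in RXRKO. The log2 difference of the ratio was then -0.27, and without Ctsb and Ctsd, which did not pass the test, it was -0.20. In both of these ratios, added after seeing the data, each RXRKO library lay below each WT library.

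**Figure D4:**
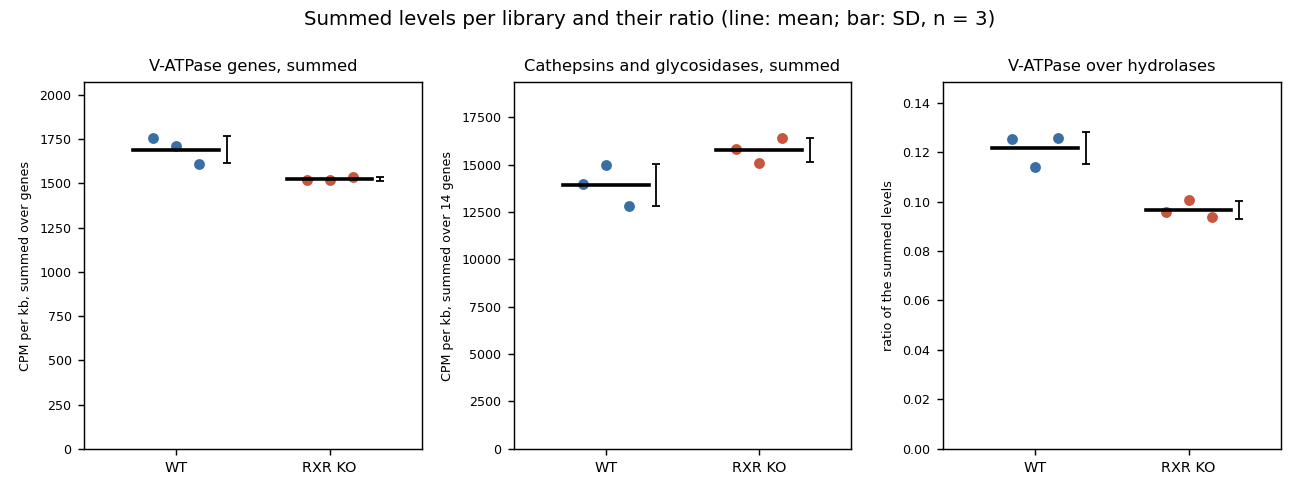
Summed CPM per kb of the V-ATPase genes, of the cathepsins and glycosidases, and their ratio, for each of the 3 WT and 3 RXRKO libraries, with lines at the means and error bars of 1 SD. The V-ATPase sums are lower and the hydrolase sums higher in every RXRKO library, and the mean ratios are 0.122 and 0.0967; without Ctsb the hydrolase sums overlap.

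Corrections for transcript length and GC content moved the split. With offsets for both, 10 of the 45 genes were higher and 5 lower, in place of 4 and 8. Ctsd, Ctss, Ctsz, Hexa, Psap and Laptm5 joined the higher genes, and Atp6v0c, Atp6v1d and Atp6v1g1 left the lower ones. The difference between the V-ATPase and hydrolase medians was -0.27 in that fit and -0.29 without offsets.

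A library of each genotype shared the direction of its departures with a library of the other, in lysosomal and other genes alike. WT replicate 2 and RXRKO replicate 3 departed from the other 2 libraries of their genotype in the same direction for 37 of the 45 genes (82.2%), 17 lower in both and 20 higher in both. The same held for 79.2% of the 3003 most abundant tested genes and for 69.0% of all tested genes. Across the 45 genes the 2 departures had a Pearson correlation of 0.93, against 0.82 over the 3003 most abundant tested genes and 0.44 over all tested genes. This pattern was noticed in the data, genes are not independent replicates, and it is given as a description. Cd68 was lower by 0.49 and 0.53 on the log2(CPM + 1) scale in these libraries, and Atp6v0c, Ctsc, Atp6v0e and Atp6v0d2 were low in both. Ctsd was higher by 0.31 and 0.26. The departures correlated with GC content across the 45 genes at 0.24 and 0.21, and the cause was not tested. With both libraries left out, a fit added after seeing the data, 4 genes were higher and 7 lower: Atp6v1d and Atp6v1g1 no longer passed, Atp6v0e did, and the difference between the V-ATPase and hydrolase medians was -0.31.

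**Figure D5:**
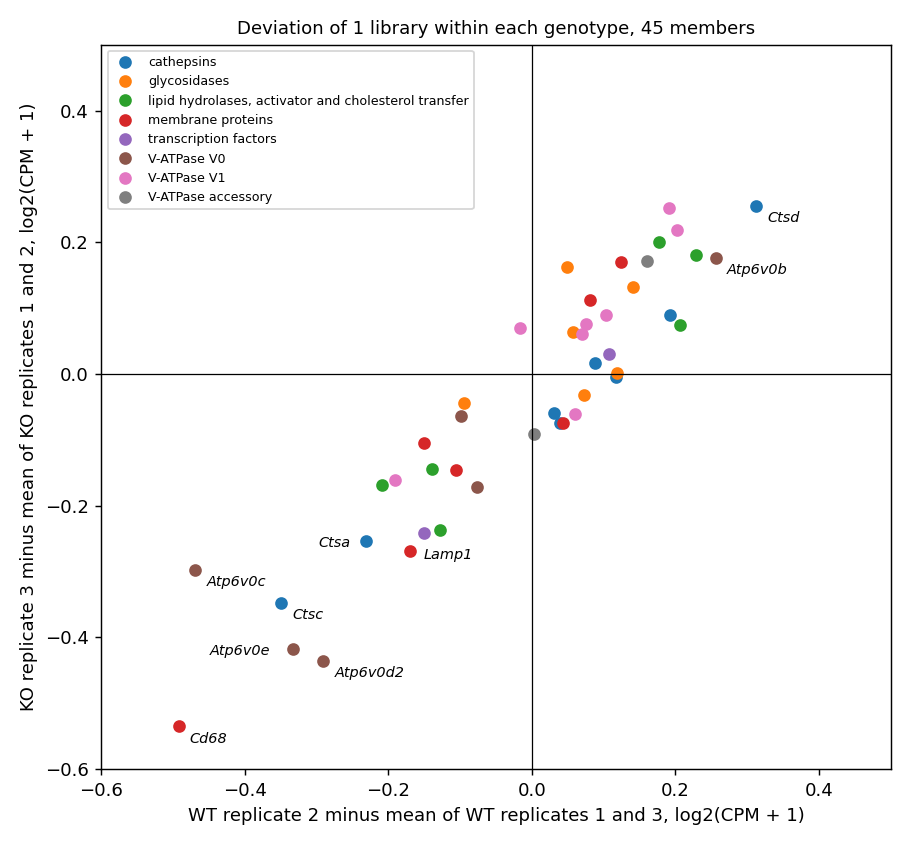
Departure of WT replicate 2 from the mean of WT replicates 1 and 3 (x axis) and of RXRKO replicate 3 from the mean of RXRKO replicates 1 and 2 (y axis), in log2(CPM + 1), 1 point per gene, coloured by class. The points run along the diagonal from Cd68 at the lower left to Ctsd at the upper right, and 37 of 45 share a sign.

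Promoters were searched for the CLEAR core and for nuclear receptor half-sites. The called V-ATPase genes were all lower and the called glycosidases all higher. Cathepsins and membrane proteins each held 1 higher and 1 lower gene. RefSeq windows (build GRCm38.p6) from 250 bases before to 50 after a start were held for 36 of the 45 genes. The letters CACGTG, the core of the CLEAR E-box and the same on both strands, were in a window of 12 of the 36 genes (33.3%) and of 8.09% of 27025 genes. By window rather than gene, 7.15% of 32851 held it. Of the 12 genes with the core 2 were higher, Gaa and Lamp1, and 10 did not pass. Of the 24 without it Gusb was higher, 4 were lower (Scarb2, Atp6v0a1, Atp6v0c and Atp6v1d), and 19 did not pass. No window was held for Ctsb, Ctsh, Atp6v0d2, Atp6v1b2 and Atp6v1g1, which had passed the test, so these counts leave them out. Among the 3003 most abundant tested genes 14.6% were higher and 12.5% lower. Whether the core goes with the direction of change was not tested. The full CLEAR palindrome, the core with GT before and AC after it, was in 0.326% of windows and in none of the members'. The nuclear receptor half-site AGGTCA, on either strand, was in 16.3% of windows and in 6 of the members' 43. Its direct repeats with 1 and with 4 bases between the copies, DR1 and DR4, were in 0.0396% and 0.0152% of windows and in none of the members'. A match of letters is a description and not a measured site. The 250 bases before the start are given 5′ to 3′ for Lamp1 (chr8:13158911-13159160, plus strand), which holds the core 4 times, for Gaa (chr11:119267713-119267962, plus strand), the gene that rose most, and for Atp6v1d (chr12:78861639-78861888, minus strand), a lower gene without the core. Capitals mark CACGTG and, in Gaa, the half-site read on the opposite strand.
Lamp1: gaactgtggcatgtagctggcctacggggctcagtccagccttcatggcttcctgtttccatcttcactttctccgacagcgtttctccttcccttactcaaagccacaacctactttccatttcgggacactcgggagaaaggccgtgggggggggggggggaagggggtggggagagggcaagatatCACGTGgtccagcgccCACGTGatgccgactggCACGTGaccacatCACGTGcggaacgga
Gaa: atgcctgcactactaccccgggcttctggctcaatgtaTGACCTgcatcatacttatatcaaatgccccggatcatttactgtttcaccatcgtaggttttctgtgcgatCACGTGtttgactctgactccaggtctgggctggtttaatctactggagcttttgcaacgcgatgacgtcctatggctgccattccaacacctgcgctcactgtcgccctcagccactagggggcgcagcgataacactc
Atp6v1d: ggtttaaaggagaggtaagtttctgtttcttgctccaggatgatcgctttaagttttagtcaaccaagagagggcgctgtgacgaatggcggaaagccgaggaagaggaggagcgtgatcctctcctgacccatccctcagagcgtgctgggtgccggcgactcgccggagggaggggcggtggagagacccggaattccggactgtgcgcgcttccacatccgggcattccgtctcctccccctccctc
In Lamp1 the cores began 61, 45, 28 and 15 bases before the start, and in Gaa the core began 140 bases before it. In Atp6v1d neither set of letters was found.

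Other lysosomal genes were taken from a list of 91, of which 90 had a row and 81 were tested. There 14 were higher, 13 lower and 54 did not pass, with a median of 0.07. Among all tested genes 9.77% were higher and 9.61% lower, and among the 3003 most abundant 14.6% and 12.5%. The list was matched to neither set in abundance. Of the other 18 glycosidases and sulfatases 3 were higher and none lower, and of the other 9 cathepsins and proteases none was higher and 3 lower. Of the 3 other V-ATPase genes tested 1 was higher, Tcirg1, and none lower, with a median of 0.27. Fnip2, a partner of folliculin, was higher, at 177, 200 and 208 CPM in WT and 299.8, 331 and 277 in RXRKO (log2 fold change 0.63, adjusted p 0.000426 by edgeR). The groups did not overlap.

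Sort1, the sorting receptor sortilin, fell most clearly, at 145, 140 and 163 CPM in WT and 62.4, 60.9 and 56.6 in RXRKO (log2 fold change -1.32, adjusted p 7.18e-07 by edgeR). Clcn7, the chloride-proton exchanger of the lysosomal membrane, fell from 218 ± 6.83 to 146 ± 3.42 CPM (-0.59, adjusted p 0.000156). Both had groups far apart. Rnaset2a and Rnaset2b, near copies of 1 ribonuclease gene on chromosome 17, moved in opposite directions, by 1.07 and -1.74 (adjusted p 0.000625 and 0.000157), and are uncertain because reads can be assigned to either copy.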

How the data were processed

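RNA of 6 macrophage cultures, 3 WT and 3 RXRKO, was sequenced single-end from 100 ng with the NEBNext Ultra II kit, per the labels' protocols. TopHat2 2.0.7, DESeq and mm10 (GRCm38) are listed in the submitters' processing notes. How reads were counted, with which annotation and by strand or not, is not given in the sources used here. The authors deposited whole-number counts per Ensembl gene, used for the main tests, and a table of log2 values, which match the counts multiplied by 1 factor per library.

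Genes kept by filterByExpr (minimum count 10, minimum total 15) were tested in R 4.3.3 with edgeR 4.0.16 (TMM factors, robust quasi-likelihood F test, genotype as the single term) and Benjamini-Hochberg adjustment over all 12011 tested genes. Each SE was derived from the F statistic (size of the log2 fold change over the root of F). In simulated counts for 11881 genes of this comparison, 49.0% of changes of 0.5 and 86.9% of changes of 1 (log2) were recovered. Exon lengths and positions came from GENCODE M21 (GRCm38).

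All 45 genes were named, in detail those past the threshold, the most abundant of each class and those on X or within 10 Mb of Rxra, Rxrb or Lyz2; of the wider list, up to 3 that rose and 3 that fell with the smallest adjusted p. Some genes that the rule names are not reported here. The members and lists were chosen with earlier results of these data known. Alternatives were RLE and upper-quartile factors, 2 other filters, DESeq2 1.42.0, limma-voom and limma 3.58.1 on log2 of the linear authors' values plus 1, the replicate number as a block, thinning to 7880320 counts, length and GC offsets, and leaving out each library. Summing the Atp6v0c pair, leaving out WT replicate 2 with RXRKO replicate 3, and leaving Ctsb or Ctsb and Ctsd out of the hydrolase sum were added after seeing the data.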

Additional observations from a re-analysis of the deposited data

How the results depend on the processing

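None of the 12 genes past the threshold changed sign in the 18 other fits, and the difference between the V-ATPase and hydrolase medians stayed between -0.32 and -0.24. Of 810 values of the 45 genes in these fits, 720 kept direction and side of the threshold, 50 lost the call, 14 gained it and 26 changed sign. Leaving out each library in turn gave 2 to 5 higher and 3 to 7 lower genes, and 1286 to 2607 called genes in all. With the replicate number as a block 2 genes were higher, 3 lower and 1375 of all genes called, against 4, 8 and 2327. Same-numbered WT and RXRKO libraries had correlations of their deviations of 0.09, -0.40 and -0.34. With 3 libraries per genotype these values cannot show whether same-numbered libraries were handled together. The log2 difference of the V-ATPase to hydrolase ratio was -0.20 without Ctsb and Ctsd, against -0.33, as those terms were taken out. Length and GC offsets gave 10 higher and 5 lower genes. Changes of sign concerned genes near 0, and the cause was not tested. After thinning, Ctsa was at 0.010, Glb1 at 0.034 and Mcoln1 at 0.018. With the offsets, Gla was at 0.052, Glb1 at 0.051, Cd68 at 0.093, Tfeb at -0.016, Tfe3 at -0.084, Atp6v0b at 0.068 and Atp6v0d1 at 0.055. Over the left-out libraries the log2 fold change ranged from -0.085 to 0.070 for Ctsa, -0.067 to 0.056 for Ctss, -0.072 to 0.011 for Gla, -0.242 to 0.064 for Cd68, -0.079 to 0.076 for Mcoln1, -0.021 to 0.105 for Tfe3, -0.127 to 0.037 for Atp6v0b, -0.138 to 0.011 for Atp6v1e1 and -0.062 to 0.090 for Atp6ap2. Adjusted p over the alternatives ran from 8.37e-21 to 0.000541 for Gaa, up to 0.021 for Ctsb, 0.00247 for Scarb2, 0.031 for Ctsh and 0.0186 for Atp6v0d2. The recovery given for a change of 0.5 was taken over tested genes at large, and that of the 45 genes alone was not tested. Of the 45 genes, those without a call had 95% intervals within 0.5 of 0 in the main fit, except Atp6v0e (-0.64 to -0.07).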
